A study of Mus musculus with 7 samples.

Results

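The genes described here encode 4 receptors of the tumour necrosis factor (TNF) receptor superfamily and 5 ligands of the matching TNF superfamily that take part in the costimulation of T cells. They are Tnfrsf4 (OX40), Tnfrsf9 (4-1BB), Tnfrsf18 (GITR), Tnfrsf1b (TNF receptor 2), Tnfsf8 (CD30 ligand), Tnfsf11 (RANKL), Cd40lg (CD40 ligand), Tnf and Lta (lymphotoxin alpha). All 9 were chosen by name, and a probe set was taken as theirs where the array annotation names that gene alone. By this rule 13 of the 45037 probe sets on the array belong to them, and all 9 genes are among the 11460 genes that were bright enough to test, of 18193 with a probe set.

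Receptors of this family signal when their trimeric ligands bring them together, and recruit TRAF adaptor proteins that lead to NF-kappaB and survival signals. OX40, 4-1BB and GITR are induced on T cells after activation and are also high on regulatory T cells, which need the transcription factor Foxp3. CD40 ligand and RANKL are made by activated helper T cells and act on B cells, dendritic cells and osteoclast precursors, while TNF and lymphotoxin alpha are secreted cytokines. Interleukin-2 (IL-2), the T cell growth factor, signals through STAT5 and sustains regulatory T cells.

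RNA was measured on 7 Affymetrix mouse arrays from lymph node CD4+ T cells of males at an age of 3 weeks. The cells were sorted for CD3 and CD4 after cells bearing NK1.1, CD11c, CD11b, CD8 or B220 had been removed. C57BL/6 mice (B6) gave 1 array from nodes pooled from 2 mice, and carry neither mutation. Scurfy mice (Sf; B6.Cg-Foxp3sf/J), which have a mutant Foxp3 gene, gave 3 arrays, and scurfy mice that also carry the null allele of B6.129P2-Il2tm1Hor/J (Sf.Il2-/-) gave 3 arrays. Both mutations are in the germ line, so every cell of these mice carries them, and both mutant groups share the Foxp3 mutation. The labels call the arrays biological replicates and do not give the number of mice behind each mutant array. Levels below are log2(intensity + 1) of the authors' intensities, and differences are on the same scale, so that 1 is a doubling.

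The median intensity lay between 29.3 and 32.4 in the 7 arrays and the upper quartile between 110.2 and 144.6. From values of 14762 dim probe sets, not from the labels, the arrays fell into 2 array sets, with B6, Sf 3 and Sf.Il2-/- 3 in set 2 and the other arrays in set 1. The lowest correlation within the sets (0.553) was no higher than the highest between them (0.554), so this division is uncertain. Foxp3 read 7.25 in B6, 5.87 to 6.32 in Sf and 4.20 to 4.41 in the arrays labelled Sf.Il2-/-. The Il2 probe set read 5.22 in B6, 5.09 to 7.35 in Sf and 7.17 to 8.20 in the arrays labelled Sf.Il2-/-. That is against the label, but the position of the probes on the disrupted gene is not given, so it does not test the genotype. All 6 CD4 T cell markers on the array (Cd3d, Cd3e, Cd3g, Cd4, Cd5 and Cd28) read at least 5 in every array. Their summed log2 level was nevertheless below B6 (67.97) in all 6 mutant arrays, at 61.43 to 64.81 in Sf and 65.84 to 67.11 in Sf.Il2-/-, and Cd4 itself read 11.27 in B6, 9.44 to 10.71 in Sf and 10.26 to 11.07 in Sf.Il2-/-. Such a position is not particular to these markers. Of all tested genes, 46.9% lay below B6 in every Sf array and 44.5% in every Sf.Il2-/- array.

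The comparisons of Sf and of Sf.Il2-/- with B6 ask what differs in Foxp3-mutant CD4 T cells with and without IL-2. Tnfsf11 was higher in both mutant groups than in B6, by 3.55-fold in Sf and by 5.34-fold in the arrays labelled Sf.Il2-/-. Tnfrsf4 was higher by 3.22-fold in the arrays labelled Sf.Il2-/-, and its 2.53-fold difference in Sf did not pass the test. The other 7 genes passed in neither comparison. Between the arrays labelled Sf.Il2-/- and Sf none of the 9 passed. The 2 comparisons with B6 share the B6 array, which is assumed to vary like the mutant arrays.

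Tnfsf11 encodes RANKL, the ligand of RANK and a product of activated T cells. At its brighter probe set it read 6.82 in B6 and 8.58, 8.28 and 9.07 in Sf 1 to 3, while Sf.Il2-/- 1 to 3 read 9.47, 8.84 and 9.40. The B6 array lay below all 6 mutant arrays, while the Sf and Sf.Il2-/- arrays overlapped. The difference from B6 was 1.83 ± 0.38 in Sf (log2, SE, n = 3 and 1; limma adjusted p = 0.0407) and 2.42 ± 0.38 in the arrays labelled Sf.Il2-/- (n = 3 and 1; limma adjusted p = 0.0143). Its dimmer probe set read 5.85 in B6 and 7.18, 7.20 and 8.10 in Sf, while Sf.Il2-/- read 8.40, 7.88 and 8.37, with B6 again below every mutant array. In a fit of single probe sets this dimmer one differed from B6 by 1.64 in Sf (limma adjusted p = 0.0867) and by 2.36 in Sf.Il2-/- (limma adjusted p = 0.0269). The brighter one differed in that fit by 1.83 (limma adjusted p = 0.0537) and 2.42 (limma adjusted p = 0.0194). There neither probe set passed in Sf and both passed in Sf.Il2-/-. The rise in Sf.Il2-/- passed under all 17 alternatives tried, with differences of 2.27 to 2.71. The rise in Sf passed under 10 of 17, with differences of 1.61 to 2.12 and a highest adjusted p of 0.0903, reached without Sf 1.

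Tnfrsf4 encodes OX40, a receptor that prolongs the survival of activated T cells. It has 1 probe set, which read 9.40 in B6 and 10.51, 10.42 and 11.28 in Sf 1 to 3, while Sf.Il2-/- 1 to 3 read 11.09, 11.27 and 10.91. The B6 array was again the lowest of the 7, and Sf 3 was the highest. The difference from B6 was 1.69 ± 0.33 in the arrays labelled Sf.Il2-/- (log2, SE, n = 3 and 1; limma adjusted p = 0.0343). It was 1.34 ± 0.33 in Sf (n = 3 and 1; limma adjusted p = 0.0691), which did not pass. The Sf value passed after quantile normalization (1.97, adjusted p = 0.00268), with the array set as a block (1.52, adjusted p = 0.0494), without Sf 2 (1.50, adjusted p = 0.0449) and without Sf 3 (1.07, adjusted p = 0.00704). The Sf.Il2-/- value was past the threshold in 12 of 17 alternatives. It was not past it without Sf.Il2-/- 1, 2 or 3 (adjusted p = 0.0925, 0.0876 and 0.061), without the filter on dim genes or without an intensity trend.

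As background, 2.47% of all tested genes passed in Sf against B6, 1.31% higher and 1.16% lower, and 2.69% passed in Sf.Il2-/- against B6, 1.49% higher and 1.2% lower. Of the 9 genes, 1 and 2 passed, all of them higher. The median difference of the 9 genes was -0.02 in Sf and -0.07 in Sf.Il2-/-, against -0.25 and -0.14 for all tested genes. With the replicate numbers as a block, 1880 and 1212 genes passed over the whole array in place of 283 and 308, and the same members were called. Quantile normalization gave 387 higher and 161 lower genes in Sf against B6 in place of 150 and 133, and 491 and 245 in Sf.Il2-/- in place of 171 and 137. In Sf it added Tnfrsf4 and Tnfrsf18, and it moved the median of all genes to 0.03 and 0.06.

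**Figure D1:**
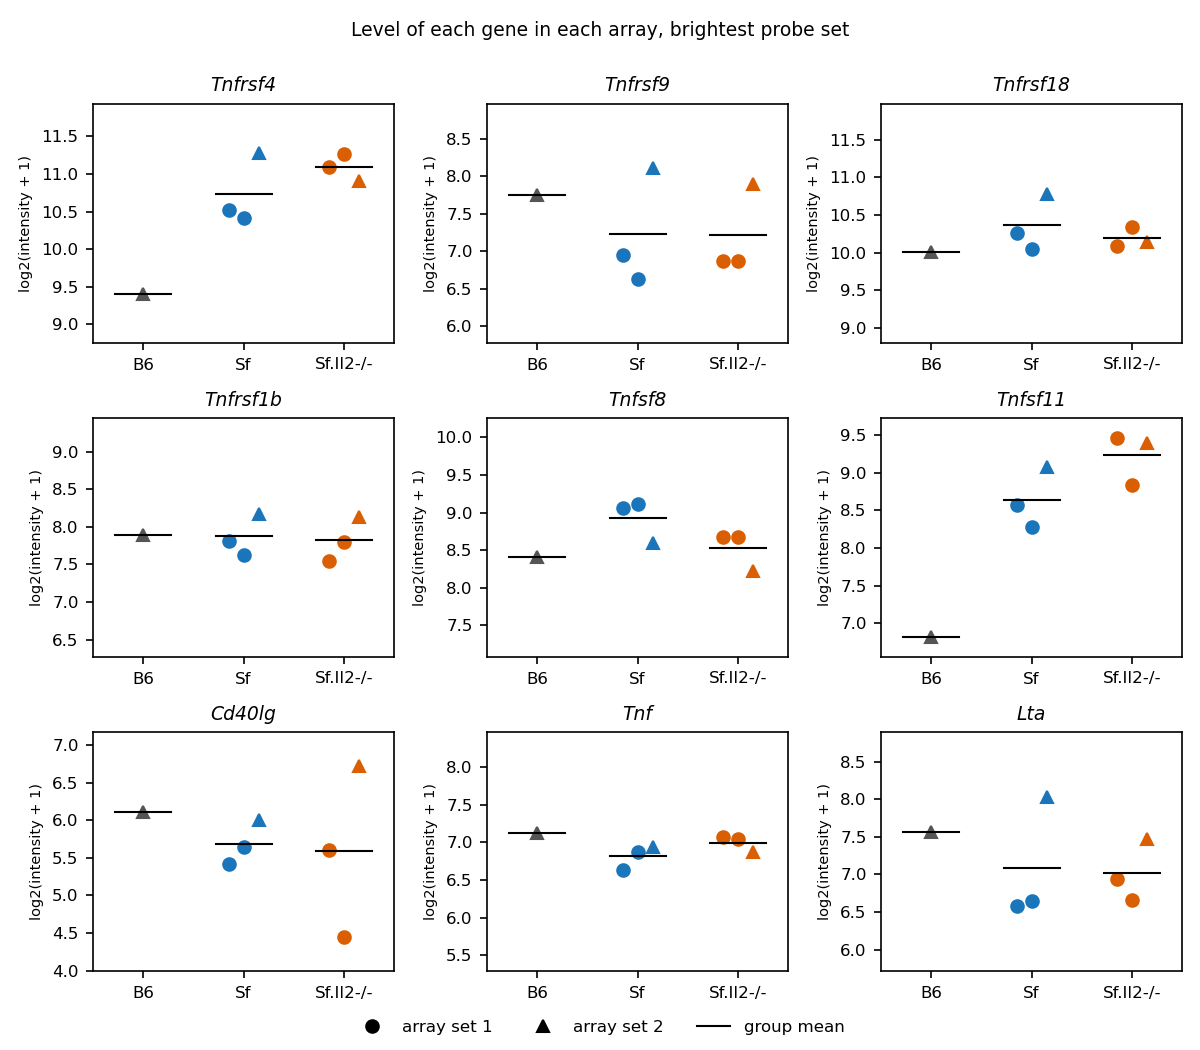
Level of each of the 9 genes (log2(intensity + 1), vertical axes all spanning the same number of log2 units) in each array, at the brightest probe set. Columns are the groups, points are single arrays, circles mark array set 1 and triangles array set 2, and lines are group means. Tnfsf11 and Tnfrsf4 were lowest in B6 (6.82 and 9.40), and the triangles of Tnfrsf9 and Lta lay above all of their circles.

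Some marker lists moved with the groups. The 6 regulatory T cell markers (Foxp3, Il2ra, Ikzf2, Ikzf4, Itgae and Ctla4) had a summed log2 level of 47.9 in B6, 50.7 to 52.1 in Sf and 39.2 to 40.1 in Sf.Il2-/-, so that the 3 groups did not overlap. All 6 read at least 5 in B6 and Sf and 4 did in Sf.Il2-/-, where Foxp3 and Il2ra read less than that. The members of this list did not move together. Only Il2ra and Itgae lay above B6 in every Sf array and below it in every Sf.Il2-/- array. Foxp3 lay below B6 in all 6 mutant arrays, and Ctla4 (9.45 in B6) lay above it in all 6, at 9.95 to 11.07. Tnfsf11 and Tnfrsf4 lay above B6 in both mutant groups, while the sum of this list lay above it in Sf and below it in Sf.Il2-/-. The summed levels of the MHC class II and NK cell markers lay above B6 in all 6 mutant arrays, as Tnfsf11 and Tnfrsf4 did. The 4 MHC class II genes (H2-Aa, H2-Ab1, H2-Eb1 and Cd74) had a summed log2 level of 19.4 in B6, 29.9 to 32.8 in Sf and 24.4 to 31.6 in Sf.Il2-/-, with 1 of 4 at 5 or above in B6 and 3 to 4 in the mutant arrays. The 6 dendritic cell markers summed to 23.1 in B6, 23.3 to 25.9 in Sf and 23.1 to 27.2 in Sf.Il2-/-, with Flt3 at 1.30 to 3.08 in every array. The 4 NK cell markers on the array summed to 16.8, 18.6 to 21.4 and 20.0 to 22.2. Of these only Klrc1 (3.78 in B6, 4.86 to 8.19 in the mutants) and Eomes (6.94, and 7.29 to 9.90) lay above B6 in every mutant array. Ncr1, a defining NK cell gene, was below B6 (3.01) in 5 of the 6, at 2.14 to 2.83, and Klra8 was below it (3.05) in Sf 3 (2.56) and Sf.Il2-/- 2 (2.05). The dendritic cell markers, with the lowest Sf.Il2-/- array at the B6 level, the 7 B cell and plasma cell markers (38.6 in B6, 37.0 to 42.9 in the mutants), the 6 monocyte and macrophage markers (33.4, and 27.0 to 35.8) and the CD8 T cell markers (14.6, and 12.2 to 13.2) did not lie above B6 in every mutant array. The neutrophil markers stood out in Sf 1 (28.4) and Sf.Il2-/- 2 (30.3), where the remaining arrays had 19.5 to 22.3. Without those 2 arrays the difference of Tnfsf11 from B6 was 1.86 ± 0.54 (SE) in Sf and 2.61 ± 0.54 in Sf.Il2-/-. That of Tnfrsf4 in Sf.Il2-/- was 1.60 ± 0.44. With all arrays the SE were smaller, at 0.38 for Tnfsf11 and 0.33 for Tnfrsf4, so this fit was the less precise. The part of the regulatory T cell, MHC class II and NK cell markers in these results was not tested. In bulk samples a change in the share of cells that express a gene and a change in RNA per cell cannot be told apart.

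Because Tnfsf11 and Tnfrsf4 both rose in the arrays labelled Sf.Il2-/- while Tnfrsf18, which lies next to Tnfrsf4 on chromosome 4, and Tnfrsf9, on the same chromosome, did not pass, the 250 bases before the annotated starts of these 4 genes are shown. The sequences are from RefSeq (GRCm38.p6), written 5′ to 3′ along the gene's strand and ending at the base before the start. Capitals mark matches, on either strand, to any of 6 motifs, which were the NF-kappaB consensus, a STAT motif (TTCNNNGAA), an AP-1 motif (TGANTCA), an NFAT core (TGGAAA), a GC box (GGGCGG) and a TATA box (TATAAA).
Tnfsf11 (chr14:78308044-78308293, minus strand): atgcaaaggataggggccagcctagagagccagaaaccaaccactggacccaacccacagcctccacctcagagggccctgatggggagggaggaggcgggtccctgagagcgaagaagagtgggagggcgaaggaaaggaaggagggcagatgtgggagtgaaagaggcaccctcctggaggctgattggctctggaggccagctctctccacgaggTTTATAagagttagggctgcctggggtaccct
Tnfrsf4 (chr4:156013445-156013694, plus strand): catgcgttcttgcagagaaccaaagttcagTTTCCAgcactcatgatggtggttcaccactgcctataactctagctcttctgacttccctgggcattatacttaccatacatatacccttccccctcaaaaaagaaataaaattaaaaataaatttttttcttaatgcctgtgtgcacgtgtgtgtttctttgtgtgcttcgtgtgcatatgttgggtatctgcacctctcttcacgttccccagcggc
Tnfrsf18 (chr4:156026072-156026321, plus strand): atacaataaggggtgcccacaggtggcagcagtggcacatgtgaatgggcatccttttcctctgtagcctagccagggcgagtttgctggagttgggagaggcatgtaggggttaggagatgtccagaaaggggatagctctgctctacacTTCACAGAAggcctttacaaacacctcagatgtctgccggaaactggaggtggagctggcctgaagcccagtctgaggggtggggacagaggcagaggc
Tnfrsf9, the first of its 2 listed starts (chr4:150919905-150920154, plus strand): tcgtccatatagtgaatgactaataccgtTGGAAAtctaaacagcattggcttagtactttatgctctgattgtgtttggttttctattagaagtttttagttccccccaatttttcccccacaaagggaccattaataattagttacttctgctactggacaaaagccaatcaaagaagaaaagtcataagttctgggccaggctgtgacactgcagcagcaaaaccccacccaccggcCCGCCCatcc
Tnfrsf9, the second (chr4:150927749-150927998, plus strand): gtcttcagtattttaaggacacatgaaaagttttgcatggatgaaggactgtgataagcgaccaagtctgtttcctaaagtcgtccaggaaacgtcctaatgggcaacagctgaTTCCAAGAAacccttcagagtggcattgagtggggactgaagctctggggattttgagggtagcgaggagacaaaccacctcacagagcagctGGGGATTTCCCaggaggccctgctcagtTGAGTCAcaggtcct

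In the Tnfsf11 window the only match was a TATA box on the reverse strand, 32 to 27 bases before the start, and in the Tnfrsf4 window it was an NFAT core on the reverse strand, 220 to 215 bases before it. The Tnfrsf18 window held a STAT motif 99 to 91 bases before the start. The first Tnfrsf9 window held an NFAT core 221 to 216 bases and a GC box, on the reverse strand, 10 to 5 bases before its start. The second held overlapping NF-kappaB matches 43 to 33 bases, an AP-1 motif 15 to 9 bases and a STAT motif 136 to 128 bases before the start. RefSeq windows were found for 8 of the 9 genes, all but Cd40lg. Of these, 4 genes had a STAT motif (Tnfrsf9, Tnfrsf18, Tnfrsf1b and Lta), 3 an NFAT core, 3 a GC box, 3 a TATA box, 1 the NF-kappaB consensus and 1 an AP-1 motif. Over all 32851 windows of this length the shares with a match were 7.02% for STAT, 18.6% for the NFAT core, 32.7% for the GC box, 12.4% for the TATA box, 3.90% for the NF-kappaB consensus and 6.75% for AP-1. These shares are per window, whereas the counts are per gene, and Tnfrsf9 was searched in both of its windows. Its STAT, NF-kappaB and AP-1 matches were all in the second. A match is a description of the letters, and the arrays hold no measurement of binding.

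Setting Sf.Il2-/- against Sf compares bulk CD4 T cell samples of Foxp3-mutant mice labelled with and without the Il2 null allele. None of the 9 genes passed at its brightest probe set (limma, 0 also at an unadjusted p under 0.05, against 908 of all genes), and none had groups of arrays that did not overlap, against 12.1% of all tested genes. At the threshold 0.279% of all genes passed, 0.0436% higher and 0.236% lower, and the non-overlapping genes were 8.39% higher and 3.72% lower. For scale, the IL-2 receptor gene Il2ra fell by 4.07 in the same fit (SE 0.34, limma adjusted p = 0.00132, n = 3 and 3). Tnfrsf4 differed by 0.35, with a 95% interval of -0.18 to 0.88, and Tnfrsf18 by -0.17, with an interval of -0.65 to 0.30. The intervals therefore reach down to 0.883 times the Sf level for Tnfrsf4 and to 0.638 times for Tnfrsf18. Tnfsf11 differed by 0.59 (-0.01 to 1.19; adjusted p = 0.636) at its brighter probe set. In the fit of single probe sets its dimmer one differed by 0.72, with an interval of 0.07 to 1.38 that lies above 0 (limma unadjusted p = 0.0334, adjusted p = 0.639), and its Sf and Sf.Il2-/- arrays overlapped. Tnfsf8 differed by -0.40 (-0.92 to 0.12; adjusted p = 0.771). The intervals of the other 5 genes reached from -1.17 at the lowest (Cd40lg) to 0.98 at the highest (also Cd40lg). Without Sf 3, the Sf array of set 2, Tnfrsf4 was higher in the arrays labelled Sf.Il2-/- by 0.62 (adjusted p = 0.0401), and the count over all genes went from 32 to 854. Within array set 1 the difference of Tnfrsf4 was 0.71 and within set 2 it was -0.38, and after quantile normalization it was -0.09.

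**Figure D2:**
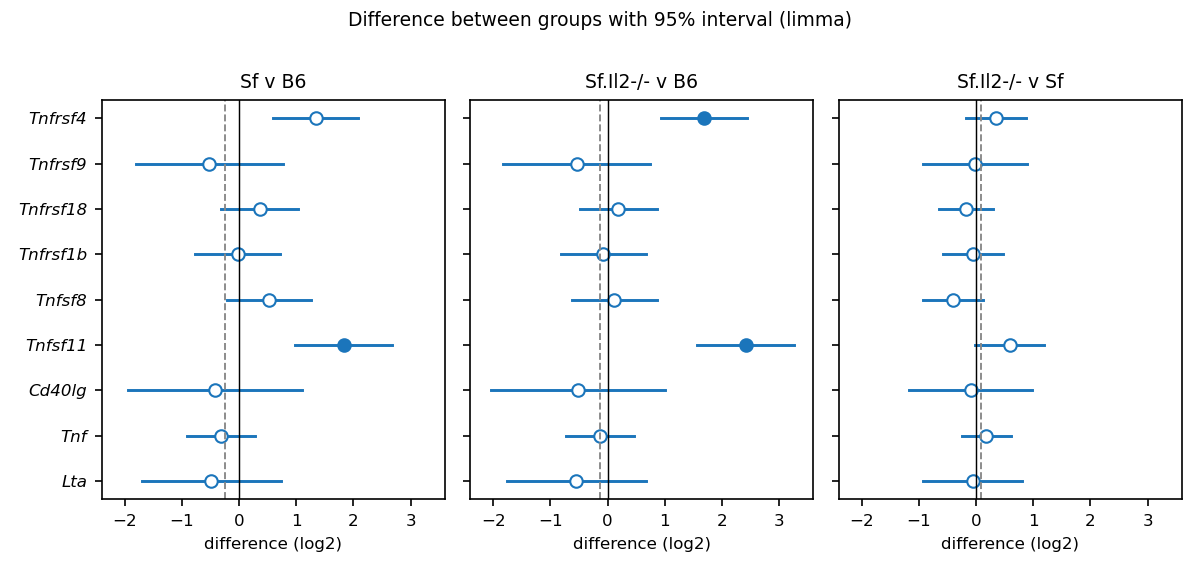
Difference of each gene between groups on the log2 scale (horizontal axes) in the 3 comparisons. Points are limma estimates, filled where the adjusted p is under 0.05, bars are 95% intervals, and the dashed line is the median of all 11460 tested genes. Tnfsf11 passed in both comparisons with B6 (1.83 and 2.42), Tnfrsf4 in that of Sf.Il2-/- (1.69), and no gene passed in Sf.Il2-/- v Sf.

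Among the receptors, Tnfrsf18 encodes GITR, a costimulatory receptor that regulatory T cells carry at rest. It read 10.001 in B6 and 10.26, 10.05 and 10.77 in Sf, while Sf.Il2-/- read 10.09, 10.34 and 10.14. All 6 mutant arrays lay above B6, but Sf 2 did so by little, and the arrays of both mutant groups overlapped. The difference from B6 was 0.36 ± 0.30 in Sf (adjusted p = 0.479) and 0.19 ± 0.30 in Sf.Il2-/- (adjusted p = 0.784; limma, SE, n = 3 and 1). In Sf it was 1.04 after quantile normalization (adjusted p = 0.00896), the 1 alternative of 17 in which it passed. Every Sf array lay above B6 in 4 of the 9 genes and below it in 2, against 19.6% and 46.9% of all tested genes (66.5% together). For Sf.Il2-/- it was 3 above and 2 below, against 24.7% and 44.5% (69.2% together), so such a position is common on these arrays.

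Tnfrsf9 encodes 4-1BB, which costimulates activated T cells. At its brightest probe set it read 7.75 in B6 and 6.95, 6.63 and 8.11 in Sf, while Sf.Il2-/- read 6.87, 6.87 and 7.90. The Sf and Sf.Il2-/- arrays overlapped. The values fell by array set, with 7.75 to 8.11 in set 2, which holds the only B6 array, and 6.63 to 6.95 in set 1. Its second probe set did the same (6.19 to 6.97 in set 2, 5.02 to 5.79 in set 1), while the third and dimmest did not, with its lowest value (4.30) in Sf.Il2-/- 3. The difference from B6 was -0.52 ± 0.57 in Sf and -0.54 ± 0.57 in Sf.Il2-/-, and with the array set as a block 0.26 ± 0.23 and 0.24 ± 0.23, so the sign turned. None of these passed (limma, SE, n = 3 and 1; adjusted p = 0.59, 0.66, 0.551 and 0.587).

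Tnfrsf1b encodes TNF receptor 2, the TNF receptor of activated and regulatory T cells. It read 7.90 in B6 and 7.81, 7.63 and 8.18 in Sf, while Sf.Il2-/- read 7.54, 7.79 and 8.14, with B6 inside the range of each mutant group. The second probe set likewise had B6 (5.86) inside both (5.27, 5.40 and 6.22 in Sf, 5.52, 5.29 and 6.23 in Sf.Il2-/-). The differences from B6 were -0.02 (-0.77 to 0.72) in Sf and -0.07 (-0.82 to 0.67) in Sf.Il2-/-, with 95% intervals in parentheses.

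Among the ligands, Tnfsf8 encodes the ligand of CD30. It read 8.40 in B6 and 9.07, 9.12 and 8.60 in Sf, while Sf.Il2-/- read 8.68, 8.68 and 8.22. This was the only one of the 9 genes with every array of set 2 (8.22 to 8.60) below every array of set 1 (8.68 to 9.12). The difference from B6 was 0.52 ± 0.33 in Sf (adjusted p = 0.358) and 0.12 ± 0.33 in Sf.Il2-/- (adjusted p = 0.886; limma, SE, n = 3 and 1). Sf.Il2-/- read lower than Sf by a similar amount within both sets (-0.41 in set 1 and -0.38 in set 2), a difference that passed in none of 18 alternatives (lowest adjusted p = 0.0989).

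Cd40lg, the ligand through which helper T cells license B cells and dendritic cells, had the widest spread among arrays of 1 group. It read 6.11 in B6 and 5.42, 5.64 and 6.00 in Sf, while Sf.Il2-/- read 5.60, 4.45 and 6.72. The standard deviation was 1.14 in Sf.Il2-/- and 0.30 in Sf. Sf.Il2-/- 2 was the lowest and Sf.Il2-/- 3 the highest of all 7 arrays, and the intervals of the differences from B6 were accordingly wide (-1.95 to 1.10 in Sf and -2.04 to 1.00 in Sf.Il2-/-).

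Tnf and Lta are neighbours on chromosome 17 and encode secreted cytokines that bind the same receptors. Tnf had the narrowest range of the 9 genes, from 6.63 to 7.13. It read 7.13 in B6 and 6.63, 6.88 and 6.94 in Sf, while Sf.Il2-/- read 7.07, 7.04 and 6.88, so that B6 was the highest array. The differences from B6 (-0.31 ± 0.27 in Sf, -0.13 ± 0.27 in Sf.Il2-/-; limma adjusted p = 0.484 and 0.834, SE, n = 3 and 1) stood close to the medians of all genes (-0.25 and -0.14). Lta read 7.57 in B6 and 6.58, 6.65 and 8.03 in Sf, while Sf.Il2-/- read 6.94, 6.66 and 7.48. Lta thus lay at 7.48 to 8.03 in array set 2 and at 6.58 to 6.94 in set 1. Its differences from B6 (-0.48 ± 0.54 and -0.54 ± 0.54; limma adjusted p = 0.599 and 0.638, SE, n = 3 and 1) turned to 0.21 and 0.15 with the array set as a block.

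Of the 9 genes, 4 had every array of set 2 above every array of set 1 (Tnfrsf9, Tnfrsf1b, Cd40lg and Lta), as had 27.7% of all tested genes, and 1 had the opposite order, as had 8.58%. Set 2 holds the only B6 array, so for these genes array set and B6 genotype cannot be fully told apart, whereas the comparison of Sf.Il2-/- with Sf has an array of each group in set 2. Within set 2 Tnfsf11 was 2.26 higher in Sf 3 and 2.58 higher in Sf.Il2-/- 3 than in B6, and Tnfrsf4 1.88 and 1.51 higher. With the array set as a block Tnfsf11 and Tnfrsf4 passed in both comparisons with B6.

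**Figure D3:**
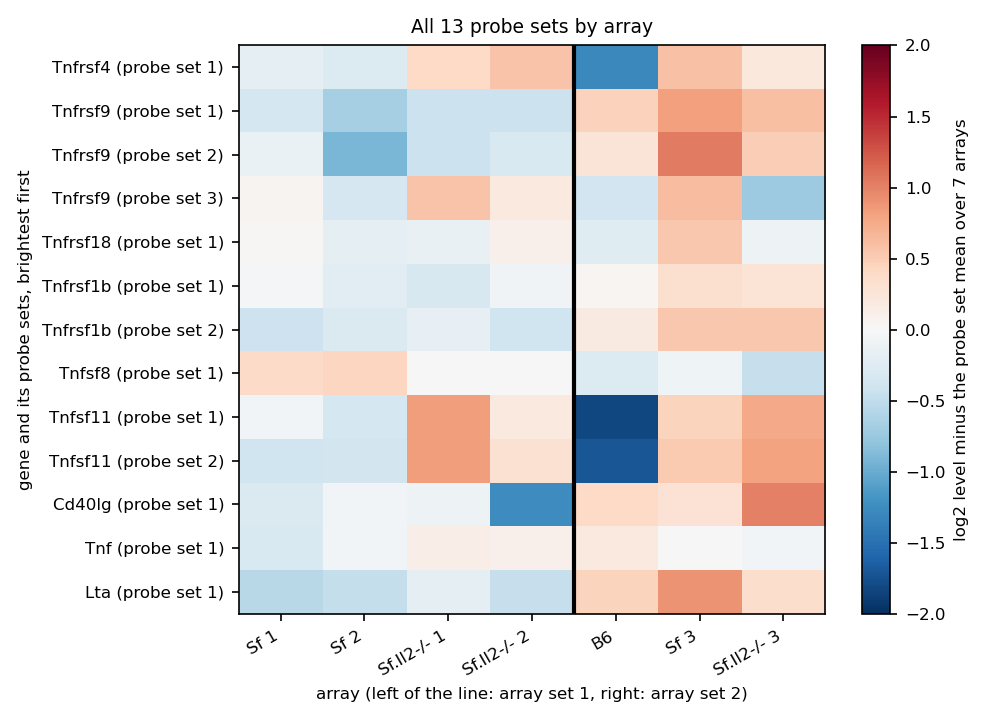
All 13 probe sets of the 9 genes (rows, the brightest of each gene first) in the 7 arrays (columns), as log2 level minus that probe set's mean over the arrays, with array set 1 left and array set 2 right of the line. Both Tnfsf11 probe sets and Tnfrsf4 were lowest in B6, and the first 2 probe sets of Tnfrsf9 and that of Lta were higher in every array of set 2 than in every array of set 1.

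The genes with the most similar profiles over the 7 arrays were found by the root mean square difference of mean-centred log2 levels. For Tnfrsf4 they were Cibar1 (0.07) and Unc119 (0.13), both lowest in B6 (7.46 and 6.75) and at least 8.61 and 7.91 in the mutant arrays. For Tnfsf11 they were Marcksl1 (0.14) and Cks2 (0.18), for Tnfrsf9 Abca2 and Apba3 (0.13 each), for Tnfrsf18 Mib1 (0.05) and Nudt4 (0.08), and for Tnfrsf1b Chm and Uap1 (0.06 each). For Tnfsf8 they were Mvk (0.03) and Spon1 (0.05), for Cd40lg Spsb1 (0.25) and Map2k6 (0.26), for Tnf Zfp595 and Fgfrl1 (0.08 each), and for Lta Lrp8 (0.08) and Wdr90 (0.10). A small value can also come from genes that vary little, such as Tnf (standard deviation 0.155 over the 7 arrays). Among the 9 genes themselves, Tnfrsf9 and Lta were closest (0.17, with standard deviations of 0.56 and 0.52). Tnfsf11 and Tnfrsf4, each the nearest of the other, differed by 0.37 (0.84 and 0.62). Tnfrsf18 and Tnfrsf1b differed by 0.22, about as much as their own standard deviations (0.24 and 0.22). Tnfrsf1b was only the 534th nearest gene to Tnfrsf18, and Tnfrsf18 the 2065th to Tnfrsf1b.

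The other genes of the pathway were taken from 5 lists. Of 13 other TNF ligands 7 were tested, and Tnfsf13b (BAFF, a B cell survival factor) and Tnfsf14 (LIGHT, a ligand of HVEM) rose in both comparisons with B6, with 0 lower. Tnfsf13b read 3.42 in B6 and 6.42, 6.56 and 6.85 in Sf, while Sf.Il2-/- read 7.04, 7.18 and 6.49. Its differences of 3.19 (limma adjusted p = 0.00354) and 3.48 (limma adjusted p = 0.00171) are not exact, since the B6 level was near the floor, and over the alternatives they ranged from 1.15 to 3.28 for Sf and from 1.31 to 3.69 for Sf.Il2-/-, passing in 16 of 17. Tnfsf14 read 5.32 in B6 and 7.14, 6.72 and 7.89 in Sf, while Sf.Il2-/- read 7.97, 8.18 and 8.10, with differences of 1.93 (limma adjusted p = 0.042) and 2.76 (limma adjusted p = 0.0114). The Sf difference of Tnfsf14 passed in 8 of 17 alternatives. The median of the 7 ligands was 0.43 in Sf and 1.04 in Sf.Il2-/-.

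Of 24 other TNF receptors 13 were tested, and none passed in any of the 3 comparisons (limma). The lowest p values belonged to Cd27, a costimulatory receptor of resting T cells, at -1.36 in Sf (adjusted p = 0.0712), and to Tnfrsf13c, the BAFF receptor, at 1.11 in Sf.Il2-/- (adjusted p = 0.155). Tnfrsf13c was near the floor, at 4.55 in B6 and 5.18 to 5.88 in the mutant arrays, so its difference is not exact. The median of this list was -0.53 in Sf and -0.33 in Sf.Il2-/-. None of 17 tested TRAF and kinase genes passed either (medians -0.41 and -0.27). Ikbkb, a kinase that releases NF-kappaB, came nearest at -1.76 in Sf (adjusted p = 0.0612) and -1.58 in Sf.Il2-/- (adjusted p = 0.0899). Of 13 tested NF-kappaB subunits and targets none passed (medians 0.40 and 0.52), with the activation marker Cd83 at 2.01 in Sf (adjusted p = 0.146) and the adhesion molecule gene Icam1 at 1.11 in Sf.Il2-/- (adjusted p = 0.223). The last list held 10 costimulators and inhibitory receptors, all of the immunoglobulin family but Cd5 and Cd6. Of these, Icos and the inhibitory receptor gene Pdcd1 rose in both comparisons with B6 (limma). The rise was 1.42 (adjusted p = 0.032) and 1.92 (adjusted p = 0.0252) in Sf, and 1.92 (adjusted p = 0.0109) and 3.25 (adjusted p = 0.00263) in Sf.Il2-/-. The list medians of -0.33 and -0.13 include Cd5 (-1.21 in Sf and -0.44 in Sf.Il2-/-) and Cd6 (-1.15 and -0.40), and so are not those of the family alone. The Sf difference of Icos passed in 12 of 17 alternatives. No gene of the 5 lists passed in Sf.Il2-/- v Sf, where the lowest adjusted p in each list were those of Pdcd1 (1.32, adjusted p = 0.0977), Tnfsf14 (0.83, 0.473), Fas (0.56, 0.564), Cyld (0.39, 0.727) and Nfkbid (0.42, 0.768).

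**Figure D4:**
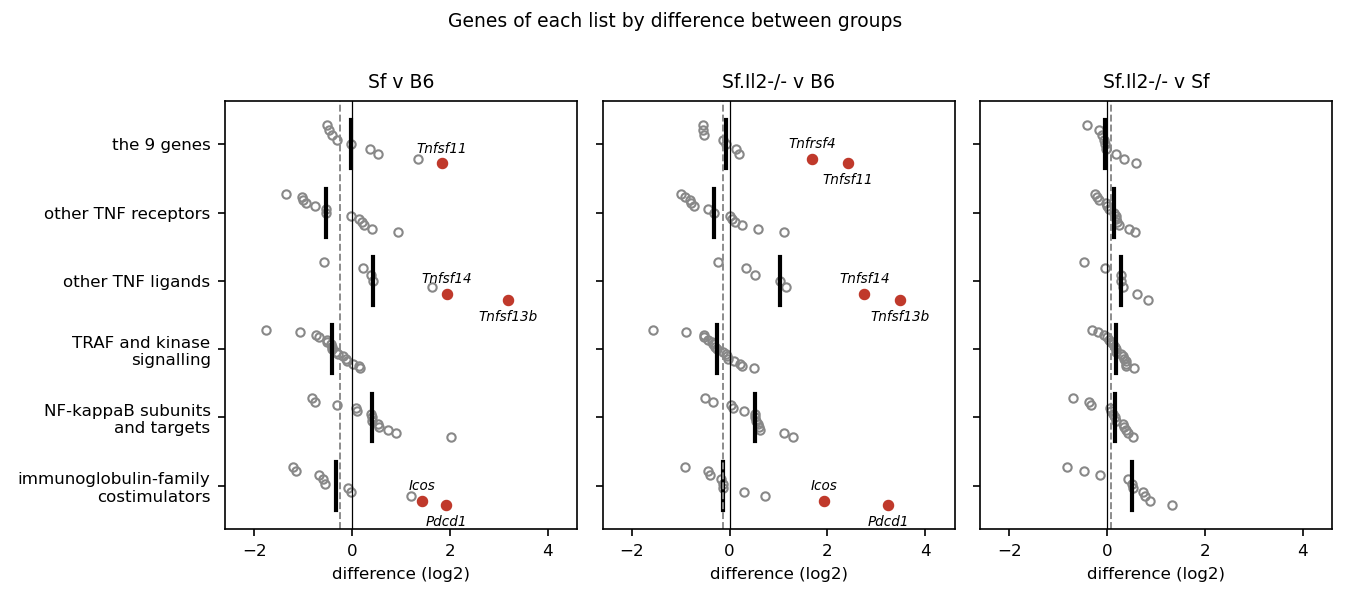
Difference between groups (log2, horizontal axes) of every tested gene of the 9 genes and of 5 lists, in the 3 comparisons. Circles are genes, filled red and named where the limma adjusted p is under 0.05, short black lines are list medians, and the dashed line is the median of all 11460 tested genes. The immunoglobulin-family list also holds Cd5 and Cd6, which are not of that family. Genes past the threshold appear only in the comparisons with B6 and are all higher in the mutant arrays.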

How the data were processed

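The authors deposited 1 table of intensity values on a linear scale, with 45037 probe sets in 7 arrays. Per the submitters' processing notes, GCRMA and GCOS were used, and their versions, order and parameters are not given in the sources used here. Their upper quartiles differ between arrays, which quantile normalization would have made equal. Here they were taken as log2(intensity + 1) with no further scaling. Of the probe sets 34945 name 1 gene, 932 several and 9160 none in the array annotation, and 34741 were brought to current symbols (RefSeq, GRCm38.p6). The brightest probe set on average stood for a gene, and a gene was tested if at least 1 of the 3 group means reached 5. No 2 arrays shared more than 0.535% identical values.

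All groups entered 1 fit with limma 3.58.1 (R 4.3.3; functions lmFit and eBayes, trend on; 4 residual degrees of freedom, 9.57 in total), with Benjamini-Hochberg adjustment over 11460 genes at 0.05. The scripts were tested on simulated data. Plots used Python 3.11.15 and matplotlib 3.10.9. The precision is limited by the number of arrays. The members and lists were chosen with earlier results of these data known. The text names the 9 genes, the genes that check the genotypes, up to 4 genes past the threshold per direction from each list (or that with the lowest p), and the 2 most similar profiles of each gene.

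Array deviations from the group means correlated by 0.301, 0.211 and 0.505 between same-numbered arrays of the mutant groups. The titles give numbers but no pairing. The highest value was that of Sf 3 and Sf.Il2-/- 3, which are both in array set 2. In an alternative the numbers were used as a replicate block, which also put B6 with Sf 1 and Sf.Il2-/- 1. That fit therefore does not test a pairing. Sf 2 correlated better with Sf.Il2-/- 1 (0.333). Other alternatives were a pseudocount of 16, single or averaged probe sets, quantile normalization, median centring, no trend, a filter at 6 or none, the array set as a block, and leaving out arrays.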

Additional observations from a re-analysis of the deposited data

How the results depend on the processing

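Of 27 pairs of a gene and a comparison, 3 passed and 24 did not, and 21 of the 24 passed under none of the other settings. In Sf v B6, where 1 gene was called, the count was 0 with no filter on dim genes, with no intensity trend, with averaged and with single probe sets, 3 after quantile normalization, 2 with the array set as a block, and 0 to 2 when 1 array was left out (0 without Sf 1, Sf.Il2-/- 1 or Sf.Il2-/- 3). In Sf.Il2-/- v B6, where 2 were called, it was 1 with no filter and with no trend, and 1 to 2 when 1 array was left out. In Sf.Il2-/- v Sf it was 0, and 0 to 1 when 1 array was left out. Genes called under any of these were Tnfsf11, Tnfrsf4 and Tnfrsf18, each of them higher wherever it was called. The fit with the replicate numbers as a block, for which the titles give no pairing, called 1, 2 and 0 of the 9 genes in the 3 comparisons, and changed no call among them. It changed the count over all genes in Sf.Il2-/- v Sf from 32 to 60. Without 1 array that count lay between 8 and 854, in Sf v B6 between 118 and 3509 and in Sf.Il2-/- v B6 between 129 and 1560. The highest counts came without Sf 3. Without the filter 161, 138 and 11 genes passed, with the array set as a block 605, 721 and 74. For values of the 9 genes that turned sign, none of which were past the threshold, the cause was not tested. The 1 array of B6 limits every comparison with it.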
